A study of Mus musculus with 4 samples.

Results

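Epiblast cells of mouse embryos late in diapause, in the library labelled EDG9.5, were set against epiblast cells from earlier in diapause, in the library labelled EDG7.5. The cells were chosen by their marker counts. A barcode with at least 1000 unique molecular identifiers (UMIs, each standing for 1 captured RNA molecule) was taken as epiblast when Tdgf1, Sox2, Nanog, Fgf4, Utf1, Pou3f1 and Slc7a3 together gave at least 3 UMIs and at least 60% of all UMIs in that set plus sets of 8 endoderm and 10 trophoblast genes. This rule found 592 epiblast cells in EDG9.5 and 491 in EDG7.5, which is 1083 of the 4292 barcodes in these 2 libraries; the whole series holds 14529 barcodes. Because those 7 genes picked the cells, their own values are given below as description.

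Both libraries came from wildtype B6C3F1/J whole embryos, and each pooled 200 to 250 blastocysts flushed from the uterus. The blastocysts were dissociated with TrypLE, an enzyme mix that frees single cells, and loaded on the BD Rhapsody system, which captures cells in microwells. Another library, Reactivated, was labelled EDG9.5 with a further 30 h of E2, and the E5.5 library came from 50 embryos taken out of their implantation sites; both serve only as side values here, and E4.5 is not analysed here. There was 1 library per stage, so the stage and the library cannot be told apart, no difference has a replicate check, and no test was made.

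Diapause is a reversible arrest in which the blastocyst stays unattached in the uterus, with little cell division, until maternal oestrogen lets it implant. The epiblast is the pluripotent lineage of the blastocyst, from which the embryo proper forms, and in diapause it keeps the naive pluripotency network that normal embryos pass through only briefly. Signals through LIF and STAT3 are known to help hold that state in the mouse, while FGF4, made by the epiblast itself, signals through the kinase ERK and is known to push cells out of it and to feed the neighbouring endoderm.

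The label was checked on marker genes that the rule had not used. A list of 11 further epiblast markers, among them Esrrb, Tfcp2l1 and Nodal, summed to 3321 CPM (the usual counts-per-million share, over all UMIs of the summed cells) in EDG9.5 epiblast and 3089 CPM in EDG7.5 epiblast, against 1068 CPM in EDG9.5 and 1184 CPM in EDG7.5 for endoderm cells and 583 CPM in EDG9.5 and 587 CPM in EDG7.5 for trophoblast cells. Other endoderm markers summed to 175 CPM in the EDG9.5 epiblast and 192 CPM in the EDG7.5 epiblast, while endoderm cells had 4009 CPM in EDG9.5 and 4278 CPM in EDG7.5. Other trophoblast markers summed to 863 CPM in the EDG9.5 epiblast and 824 CPM in the EDG7.5 epiblast, most of it Id2, Tfap2c and Eomes, while trophoblast cells had 2160 CPM in EDG9.5 and 2324 CPM in EDG7.5. The endoderm set of the rule gave 458 CPM in EDG9.5 epiblast and 474 CPM in EDG7.5 epiblast, of which Sparc made 389 CPM in EDG9.5 and 384 CPM in EDG7.5. The trophoblast set of the rule gave 53.2 CPM in EDG9.5 epiblast and 75.1 CPM in EDG7.5 epiblast. Marker lists for decidual stroma reached 5.91 CPM in EDG9.5 and 4.52 CPM in EDG7.5, and for red blood cells 0.394 CPM in EDG9.5 and 0.696 CPM in EDG7.5, with 2 of 8 and 5 of 6 genes at 0 in both libraries. Lists for uterine epithelium, immune cells and endothelium summed to 423, 220 and 205 CPM in EDG9.5 epiblast and 533, 234 and 229 CPM in EDG7.5 epiblast. Most of it was Epcam, Laptm5 and Pecam1, and Wfdc2 of the uterine list also reached a mean of at least 20 CPM. Of their genes that were named in the data, 1 of 7, 5 of 8 and 2 of 5 were at 0 in both.

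The epiblast made up 23.9% (22.3 to 25.7) of the cells with a lineage in EDG9.5 and 29.0% (26.8 to 31.2) in EDG7.5, with exact Clopper-Pearson intervals. These and all later intervals are at 95% and cover counting error only. The summed epiblast held 2537137 UMIs in EDG9.5 and 2875111 UMIs in EDG7.5. The median epiblast cell had 4039.5 UMIs in EDG9.5 and 5514 UMIs in EDG7.5, and after thinning each cell to 1000 UMIs it showed 758 genes in EDG9.5 and 768 in EDG7.5. Mitochondrially encoded genes took a median of 4.40% of a cell's UMIs in EDG9.5 and 5.39% in EDG7.5. Depth and mitochondrial share therefore differed between the libraries alongside every comparison below, and their part in the results was not tested. CPM are shares of all UMIs, so neither a lower nor a higher CPM shows how the number of molecules per cell differed. Few cells sat near the limits of the rule: 3 cells in EDG9.5 and 1 in EDG7.5 had an epiblast share between 60 and 65%, while 2 in EDG9.5 and 1 in EDG7.5 lay just outside, between 55 and 60%. The libraries had 8 barcodes in common, of which 1 was an epiblast cell in both.

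Across the epiblast transcriptome the later and earlier libraries were close. Of 7067 genes with a mean of at least 20 CPM, 3 were at least 2-fold higher in EDG9.5 (0.0425%) and 3 were at least 2-fold lower (0.0425%), on the scale of log2(CPM + 10). At 1.5-fold, a limit added after the values were seen, 65 genes were higher (0.92%) and 79 lower (1.12%). The log2 ratio of EDG9.5 over EDG7.5 was above 0 for 44.1% of genes and below 0 for 55.9%, with a median of -0.03, and the middle 95% of genes lay between -0.49 and 0.45.

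**Figure D1:**
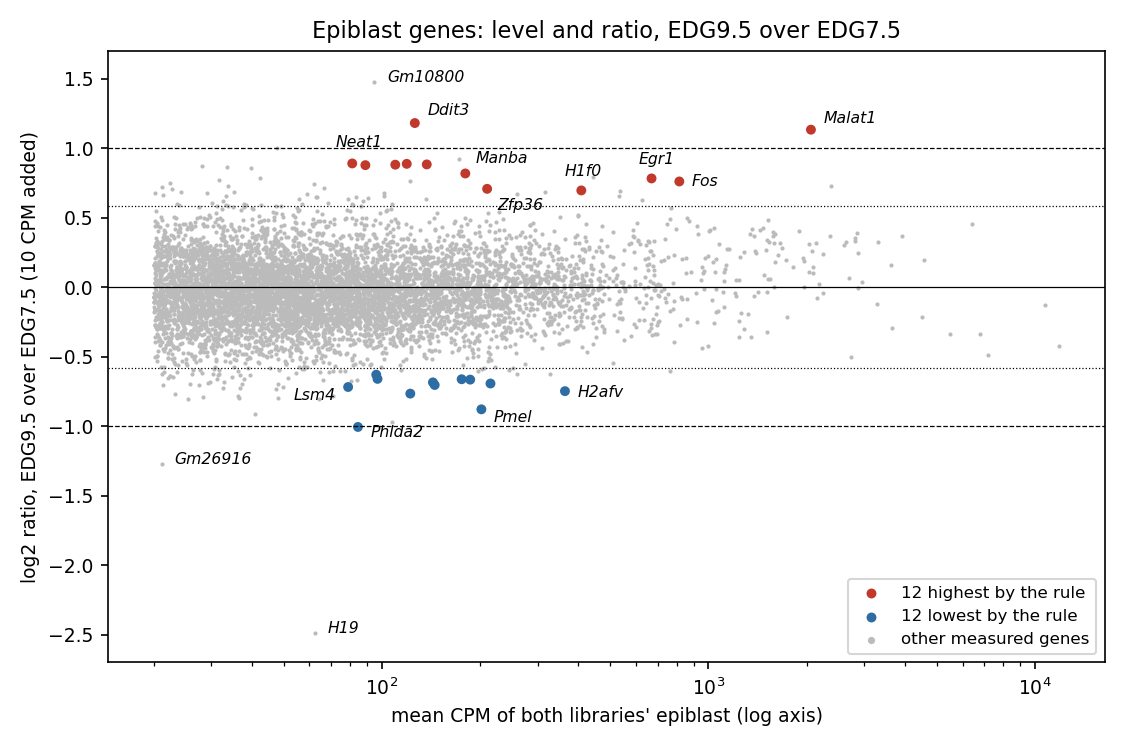
Each point is 1 of the 7067 measured genes; the horizontal axis (log scale) is the mean CPM of the 2 epiblast sums and the vertical axis the log2 ratio of EDG9.5 over EDG7.5 with 10 CPM added. Dotted lines mark 1.5-fold and dashed lines 2-fold; most genes lie between the dotted lines, and Ddit3 and Malat1 stand highest among the 24 coloured genes.

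The 2 named genes past 2-fold upward were a stress transcription factor and a nuclear RNA. Ddit3, which encodes the stress-induced factor CHOP, was at 179 CPM (163 to 196) in EDG9.5 and 73.4 CPM (63.8 to 84.0) in EDG7.5, a ratio of 2.44 (2.07 to 2.88, exact conditional interval). It lies at chr10:127290774-127296288 on the plus strand of GRCm38, where a second annotated gene of the same symbol overlaps it, so its counts cannot be split between them. Malat1, a long noncoding RNA kept in the nucleus (chr19:5795690-5802672, minus strand), was at 2832 CPM (2767 to 2898) in EDG9.5 and 1287 CPM (1245 to 1329) in EDG7.5, a ratio of 2.2 (2.12 to 2.29). The remaining gene past the limit, the predicted gene Gm10800, had 144 CPM in EDG9.5 and 45.6 CPM in EDG7.5 and is not read further.

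Downward, the clearest gene was Phlda2, an imprinted gene known to limit placental growth, at chr7:143501545-143503150 on the minus strand. It was at 52.8 CPM (44.3 to 62.6) in EDG9.5 epiblast and 116 CPM (104 to 129) in EDG7.5 epiblast, a ratio of 0.455 (0.369 to 0.557). No single cell held more than 1.92% of its UMIs. The same does not hold for H19, an imprinted noncoding RNA, which was past the limit at 11.8 CPM in EDG9.5 and 113 CPM in EDG7.5: 2 cells carried 156 and 123 of its 324 UMIs in EDG7.5 (86.1%), and the remaining cells held 45; in EDG9.5, 25 cells held 30. The predicted gene Gm26916, also below the limit, had 8.28 CPM in EDG9.5 and 34.1 CPM in EDG7.5, with 21.0% of its UMIs in 1 cell.

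Beyond these, the 12 highest genes by the naming rule included several with known cell functions. Neat1, the RNA that builds nuclear paraspeckles, was at 108 CPM (96.0 to 122) in EDG9.5 and 53.9 CPM (45.8 to 63.1) in EDG7.5. Atf5, a transcription factor of the mitochondrial and amino acid stress response, was at 158 CPM (143 to 174) in EDG9.5 and 80.7 CPM (70.6 to 91.8) in EDG7.5. Dazl, an RNA-binding protein best known from germ cells, had 118 CPM (105 to 132) in EDG9.5 and 59.8 CPM (51.2 to 69.5) in EDG7.5. Manba, the lysosomal beta-mannosidase, had 233 CPM (214 to 252) in EDG9.5 and 128 CPM (115 to 141) in EDG7.5. The linker histone gene H1f0, typical of cells that divide little, had 507 CPM (480 to 535) in EDG9.5 and 309 CPM (289 to 330) in EDG7.5. The receptor gene Dcbld2 and the haem-binding Pgrmc1 had log2 ratios of 0.88 each, and Egr1, Fos and Zfp36 fill the list and are taken up with the immediate early genes.

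The 12 lowest genes were led by Phlda2 and by Pmel, which encodes a fibril protein of pigment cells, at 139 CPM (125 to 154) in EDG9.5 and 264 CPM (246 to 284) in EDG7.5. H2afv, a variant of a core histone, was at 269 CPM (249 to 290) in EDG9.5 and 458 CPM (434 to 484) in EDG7.5; histone genes have near copies that counting may mix. Lsm4, a subunit of the ring that binds spliceosomal RNA, was at 57.2 CPM in EDG9.5 and 101 CPM in EDG7.5 (log2 ratio -0.72, but 0.044 in the cells with no UMI of the endoderm and trophoblast sets), and Nup62, of the nuclear pore channel, at 108 CPM in EDG9.5 and 182 CPM in EDG7.5. Birc5, the survivin subunit of the complex that steers chromosomes in mitosis, was at 108 CPM (95.2 to 121) in EDG9.5 and 179 CPM (164 to 195) in EDG7.5. Cox17, the copper chaperone of cytochrome oxidase, was at 142 CPM (128 to 157) in EDG9.5 and 231 CPM (214 to 249) in EDG7.5. Ube2l6, Siva1, S100a13, Adam19 and Rpp21 complete the list, with log2 ratios between -0.77 and -0.63.

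**Figure D2:**
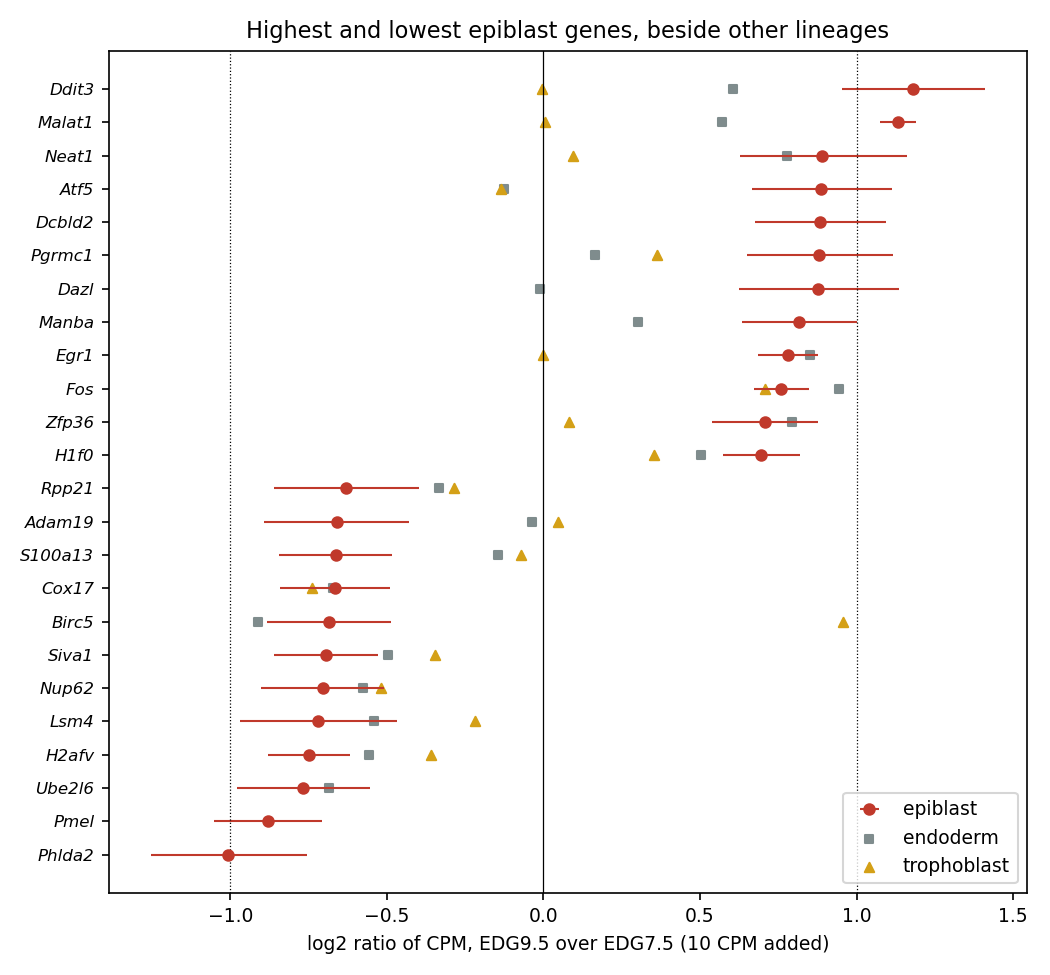
Log2 ratios of EDG9.5 over EDG7.5 with 10 CPM added for the 12 highest and 12 lowest epiblast genes (circles, with 95% counting intervals), beside the same ratio in endoderm (squares) and trophoblast cells (triangles), drawn where the mean in that lineage was at least 20 CPM. Cox17 lies at -0.67, -0.67 and -0.74 in the 3 lineages, while Atf5 is below 0 in endoderm and trophoblast.

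These genes did not all follow 1 pattern across lineages. Cox17 had log2 ratios of -0.67 in epiblast, -0.67 in endoderm and -0.74 in trophoblast, and Fos had 0.76, 0.94 and 0.71. Atf5 had 0.89 in epiblast, -0.13 in endoderm and -0.14 in trophoblast. Dcbld2, Pmel and Phlda2 were under 20 CPM in both other lineages, so their ratios there are not read. Birc5 was lower in EDG9.5 in epiblast and endoderm (-0.69 and -0.91) and higher in trophoblast (0.96), where it was at 34.3 CPM in EDG9.5 and 12.8 CPM in EDG7.5. Few trophoblast cells held a UMI of it after thinning, 1.44% in EDG9.5 and 0.98% in EDG7.5. Differences between lineages were not tested.

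The pluripotency genes held close to the same level as a group. Of 19 measured naive genes of 20 listed, 9 had ratios above 0 and 10 below, with a median of -0.01, and of 15 core pluripotency genes, all measured, 7 were above and 8 below, with a median of -0.00; no gene in either list was past 1.5-fold. Without Sox2, Nanog, Tdgf1 and Utf1, which the selection rule used, 5 of the 11 other core genes were above 0 and 6 below, with a median of -0.01. The naive factors Esrrb and Tfcp2l1 were level, at 603 CPM (573 to 634) and 964 CPM (926 to 1003) in EDG9.5 against 585 CPM (557 to 613) and 973 CPM (937 to 1010) in EDG7.5. Klf4 was at 1908 CPM (1855 to 1963) in EDG9.5 and 1723 CPM (1675 to 1772) in EDG7.5, and Tbx3 at 1051 CPM (1011 to 1092) in EDG9.5 and 906 CPM (872 to 942) in EDG7.5. The extremes of the naive list were Prdm14, a repressor of the FGF and DNA methylation programmes, with a log2 ratio of 0.45, and Dppa5a, with -0.50. Dppa5a, which has near-identical copies, was at 2252 CPM in EDG9.5 and 3192 CPM in EDG7.5. Among core genes, the forkhead factor Foxd3 stood highest, at 272 CPM (252 to 293) in EDG9.5 and 184 CPM (169 to 200) in EDG7.5. Pou5f1, the OCT4 gene, was listed at only 49.3 CPM (41.0 to 58.7) in EDG9.5 and 57.0 CPM (48.6 to 66.5) in EDG7.5, and it too has processed copies.

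The genes of the selection rule, given as description, split. Tdgf1, a co-receptor for NODAL, was at 3241 CPM (3172 to 3312) in EDG9.5 and 2476 CPM (2419 to 2534) in EDG7.5. Sox2, a core pluripotency factor, was at 1794 CPM (1743 to 1847) in EDG9.5 and 1363 CPM (1321 to 1406) in EDG7.5, and Fgf4, the epiblast's own FGF ligand, at 668 CPM (637 to 701) in EDG9.5 and 518 CPM (492 to 545) in EDG7.5. Nanog was at 757 CPM (724 to 792) in EDG9.5 and 810 CPM (778 to 844) in EDG7.5, and Utf1 at 344 CPM in both. The cationic amino acid transporter gene Slc7a3 was at 67.0 CPM (57.3 to 77.9) in EDG9.5 and 28.5 CPM (22.7 to 35.4) in EDG7.5, just short of the 2-fold limit on the log2(CPM + 10) scale. Each gene in turn was also left out of the rule and measured in the cells then called. Log2 ratios were 0.40 for Tdgf1, 0.40 for Sox2, 0.36 for Fgf4, -0.10 for Nanog, -0.01 for Utf1, 0.15 for Pou3f1 and 0.999 for Slc7a3. Without Tdgf1 the rule called 572 cells in EDG9.5 and 478 in EDG7.5, and without Slc7a3 592 and 491. The cells were thus nearly the same, so these ratios are no independent check.

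**Figure D3:**
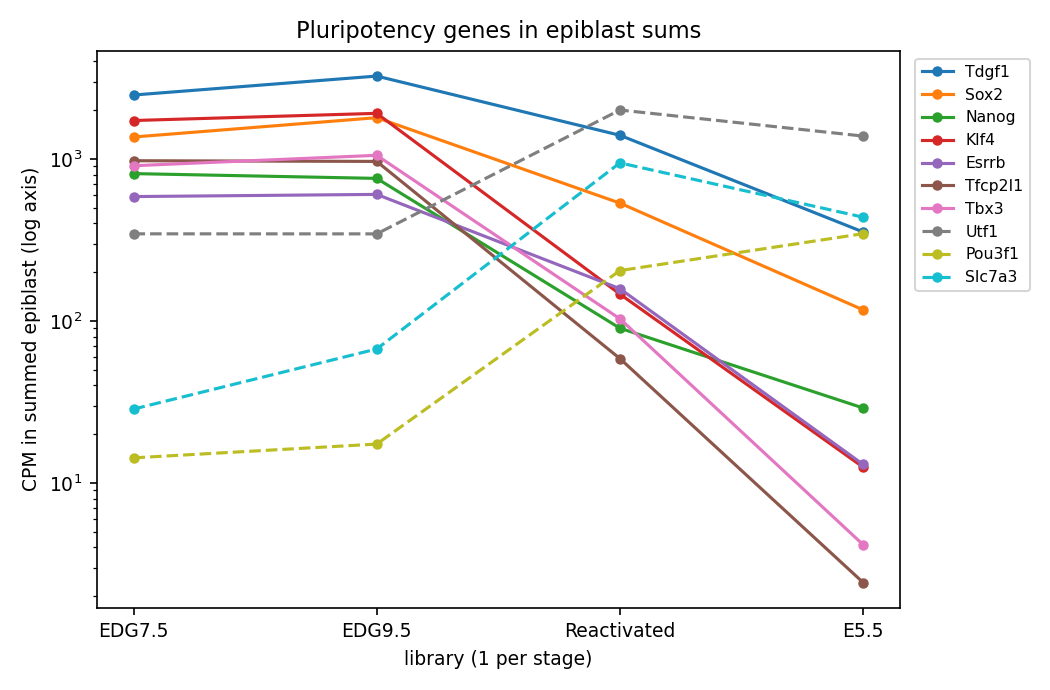
CPM of 10 pluripotency genes in the summed epiblast of each of the 4 libraries, in stage order (log vertical axis). Klf4, Esrrb, Tfcp2l1 and Tbx3 lie lower in Reactivated and E5.5 than in the diapause libraries; Tdgf1, Sox2, Nanog, Utf1, Pou3f1 and Slc7a3 are genes of the selection rule, and the last 3 (dashed) lie higher there.

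The naive list summed to 10943 CPM in EDG7.5, 10424 CPM in EDG9.5, 3682 CPM in Reactivated and 1282 CPM in E5.5 epiblast, while the core list, which holds genes of the selection rule, summed to 8393, 9527, 8611 and 5104 CPM in that order of stages. Of the naive factors, Tfcp2l1 was at 973 CPM in EDG7.5, 964 CPM in EDG9.5, 58.5 CPM in Reactivated and 2.42 CPM in E5.5 epiblast, and Klf4 at 1723, 1908, 146 and 12.5 CPM in that order of stages. As description, since the rule used them, Slc7a3 was at 28.5, 67.0, 944 and 436 CPM, and Pou3f1, a gene of the formative state, at 14.3, 17.3, 204 and 345 CPM. Of 20 formative and primed genes 10 were measured in the diapause epiblast, 5 above 0 and 5 below, and the list summed to 1127, 1276, 4329 and 6675 CPM over the stages.

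Immediate early genes were mostly higher in EDG9.5. Of 18 measured immediate early genes, which respond to signals within minutes without new protein synthesis, 15 had ratios above 0 and 3 below, with a median of 0.26, and 4 were past 1.5-fold upward and 1 downward; over all genes 0.92% and 1.12% were. Egr1, a zinc finger factor driven by ERK, was at 849 CPM (814 to 886) in EDG9.5 and 490 CPM (464 to 516) in EDG7.5. Fos, a subunit of the factor AP-1, was at 1026 CPM (987 to 1066) in EDG9.5 and 602 CPM (574 to 631) in EDG7.5. Zfp36, which promotes the decay of such short-lived messages, was at 263 CPM (243 to 284) in EDG9.5 and 157 CPM (143 to 172) in EDG7.5. Egr2, a relative of Egr1, was at 45.7 CPM (37.8 to 54.8) in EDG9.5 and 24.7 CPM (19.3 to 31.1) in EDG7.5. Atf3, a stress-induced factor, went the other way at 15.0 CPM (10.6 to 20.6) in EDG9.5 and 29.2 CPM (23.3 to 36.2) in EDG7.5; its log2 ratio was -0.65, but 0.87 in the cells with no UMI of the endoderm and trophoblast sets. The median log2 ratio of the list was 0.38 in endoderm and 0.08 in trophoblast. Each stage was 1 library, so its handling and its stage cannot be told apart for these genes.

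Of 14 measured genes of FGF and ERK signalling and its feedback, 9 had ratios above 0 and 5 below, with a median of 0.30. That median was 0.14 when each cell was thinned to 1000 UMIs. Over all measured genes 44.1% were above 0 and 0.92% at least 1.5-fold higher. Without Fgf4, a gene of the selection rule, 8 of 13 were above 0, with a median of 0.26. The 3 past 1.5-fold were Egr1, which is on both lists, Spry2 and Spry4. Spry2, which blocks receptor signalling, was at 662 CPM (631 to 695) in EDG9.5 and 407 CPM (384 to 431) in EDG7.5, and its relative Spry4 at 99.7 CPM (87.8 to 113) in EDG9.5 and 63.0 CPM (54.1 to 72.8) in EDG7.5. Dusp6, a phosphatase that inactivates ERK, was at 197 CPM (180 to 215) in EDG9.5 and 139 CPM (125 to 153) in EDG7.5. Etv5, a target of FGF signalling, had a log2 ratio of -0.26, at 153 CPM (138 to 169) in EDG9.5 and 185 CPM (170 to 201) in EDG7.5. In endoderm, which receives FGF4, the median of this list was -0.04, with 7 genes above 0 and 9 below, and in trophoblast it was -0.00.

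The promoters of the genes in these lists were searched for the CArG box, the site of the serum response factor, since it is the classic element of immediate early genes. The search took the 250 bases before each start in the RefSeq promoter table (GRCm38.p6) on both strands. Egr1 was not among the genes searched, and sites outside those bases would be missed. The CArG box was present for 2 of 13 measured immediate early genes with a promoter (Egr2 and Zfp36) and 1 of 8 FGF and ERK genes (Dusp5). It was present for 1.62% of 27025 genes in the table and 1.47% of the 5307 measured genes with a promoter. Of 3 other motifs searched, the CRE (TGACGTCA) was found for 2 of the 13 immediate early genes and 0 of the 8 FGF and ERK genes. It was found for 1.77% of all genes and 3.56% of measured genes. The AP-1 site (TGACTCA or TGAGTCA) was found for 0 of 13 and 0 of 8, against 5.16% of all genes and 3.43% of measured genes. The amino acid response motif CARE (TGATGNAA) was found for 1 of 13 and 0 of 8, and for 2 of 15 amino acid and stress genes. Its share was 3.91% of all genes and 2.17% of measured genes. A match describes letters and shows no binding. One site of each gene is shown with 10 bases on both sides, 5′ to 3′ on the gene's strand, the box in capitals; Egr2 has a further site and Dusp5 a second that adjoins the first. They lie at chr10:67537787-67537816 (plus), chr7:28379267-28379296 (minus) and chr19:53529053-53529082 (plus).
Egr2: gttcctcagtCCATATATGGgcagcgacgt
Zfp36: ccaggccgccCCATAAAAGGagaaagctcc
Dusp5: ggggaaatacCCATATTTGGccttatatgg
These 3 genes had log2 ratios of 0.68, 0.71 and 0.35. Over all 78 measured genes with a CArG box the median was -0.05, and over the 5229 without it was -0.03.

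Genes of the amino acid and integrated stress response stayed close to level apart from a few. Of 20 measured genes, 14 were above 0 and 6 below, with a median of 0.09. Over all measured genes 44.1% were above 0 and 0.92% at least 1.5-fold higher. Ddit3 and Slc7a3, given above, were past 1.5-fold, and Slc7a3 is also a gene of the selection rule. Ddit4, which inhibits the growth kinase mTOR, was at 79.2 CPM (68.6 to 91.0) in EDG9.5 and 51.8 CPM (43.8 to 60.8) in EDG7.5. Atf4, the transcription factor above these genes, was level at 518 CPM (491 to 547) in EDG9.5 and 502 CPM (477 to 529) in EDG7.5. Its target Asns, which makes asparagine, was level too, at 1050 CPM (1010 to 1090) in EDG9.5 and 1058 CPM (1021 to 1096) in EDG7.5. Trib3, a target of Ddit3 and Atf4, was at 24.4 CPM (18.7 to 31.3) in EDG9.5 and 18.1 CPM (13.5 to 23.7) in EDG7.5, with overlapping intervals. In trophoblast Ddit4 had a log2 ratio of -0.95, at 13.8 CPM in EDG9.5 and 36.1 CPM in EDG7.5; in endoderm it was under 20 CPM.

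Nuclear noncoding RNAs and the host genes of small nucleolar RNAs were higher as a group. All 10 measured of 15 listed had ratios above 0, with a median of 0.67, and 7 were past 1.5-fold. Over all measured genes 44.1% were above 0 and 0.92% at least 1.5-fold higher. The list summed to 4740 CPM (4656 to 4826) in EDG9.5 and 2609 CPM (2551 to 2669) in EDG7.5, of which Malat1 made 2832 CPM in EDG9.5 and 1287 CPM in EDG7.5. Gas5, a host gene whose RNA is held down when translation is active, was at 654 CPM (623 to 686) in EDG9.5 and 412 CPM (389 to 436) in EDG7.5, and Snhg6, another host gene, at 391 CPM (367 to 416) in EDG9.5 and 239 CPM (222 to 258) in EDG7.5. The shift was spread over cells: after thinning to 1000 UMIs a cell held a mean of 4.88 UMIs of the list in EDG9.5 and 2.68 in EDG7.5, and 47.8% (43.7 to 51.9) of cells in EDG9.5 and 15.1% (12.02 to 18.6) in EDG7.5 held at least 5. The mitochondrial share moved the other way, at 4.94% of the summed epiblast UMIs in EDG9.5 and 5.93% in EDG7.5, and the part of RNA quality was not tested. The list's median was 0.50 in endoderm and 0.09 in trophoblast.

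Ribosomal protein genes were higher in EDG9.5, and more so in the other lineages. Of 85 measured, 75 were above 0 and 10 below with a median of 0.23, none past 1.5-fold. Over all measured genes 44.1% were above 0. Ribosomal protein genes took 10.5% of epiblast UMIs in EDG9.5 and 8.93% in EDG7.5. The median was 0.38 in endoderm and 0.55 in trophoblast. Rpsa stood highest in the epiblast, at 922 CPM (885 to 960) in EDG9.5 and 619 CPM (591 to 649) in EDG7.5, and Rps6, whose protein is phosphorylated downstream of mTOR, was at 472 CPM (445 to 499) in EDG9.5 and 327 CPM (306 to 349) in EDG7.5. These genes have many processed copies, so single values are uncertain. Of 31 translation factors, 23 were above 0 and 8 below; Eif4a2, a helicase of translation initiation, was at 762 CPM (728 to 797) in EDG9.5 and 489 CPM (464 to 515) in EDG7.5. Genes for making ribosomes were not shifted in the same way, with 13 of 32 above 0 and a median of -0.05, though Npm1 was at 3136 CPM (3068 to 3206) in EDG9.5 and 2489 CPM (2432 to 2548) in EDG7.5.

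Many ribosomal protein messages begin with a run of pyrimidines by which mTOR is known to control their translation. A start with C followed by at least 4 bases that were C or T was found at a RefSeq start of 13 of 63 ribosomal protein genes with a promoter. It was found for 3.01% of all 27025 genes and 3.20% of the 5307 measured genes with a promoter. The windows run 15 bases to each side of the start, the run in capitals, for Rps6 (chr4:86857353-86857382, minus), Rpl38 (chr11:114668565-114668594, plus) and Gas5 (chr1:161035151-161035180, plus), which shares the feature.
Rps6: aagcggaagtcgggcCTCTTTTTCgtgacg
Rpl38: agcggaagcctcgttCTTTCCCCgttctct
Gas5: agccgccatctcagcCTTTCggagctgtgc
The log2 ratios of Rps6, Rpl38 and Gas5 were 0.52, 0.48 and 0.65. The median was 0.21 over the 13 ribosomal protein genes with the run and 0.23 over the 50 without, and 0.01 over 157 other measured genes with it and -0.04 over 5087 without it. Annotated starts can be a few bases off, so a missing run says only that it is not at that base.

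**Figure D4:**
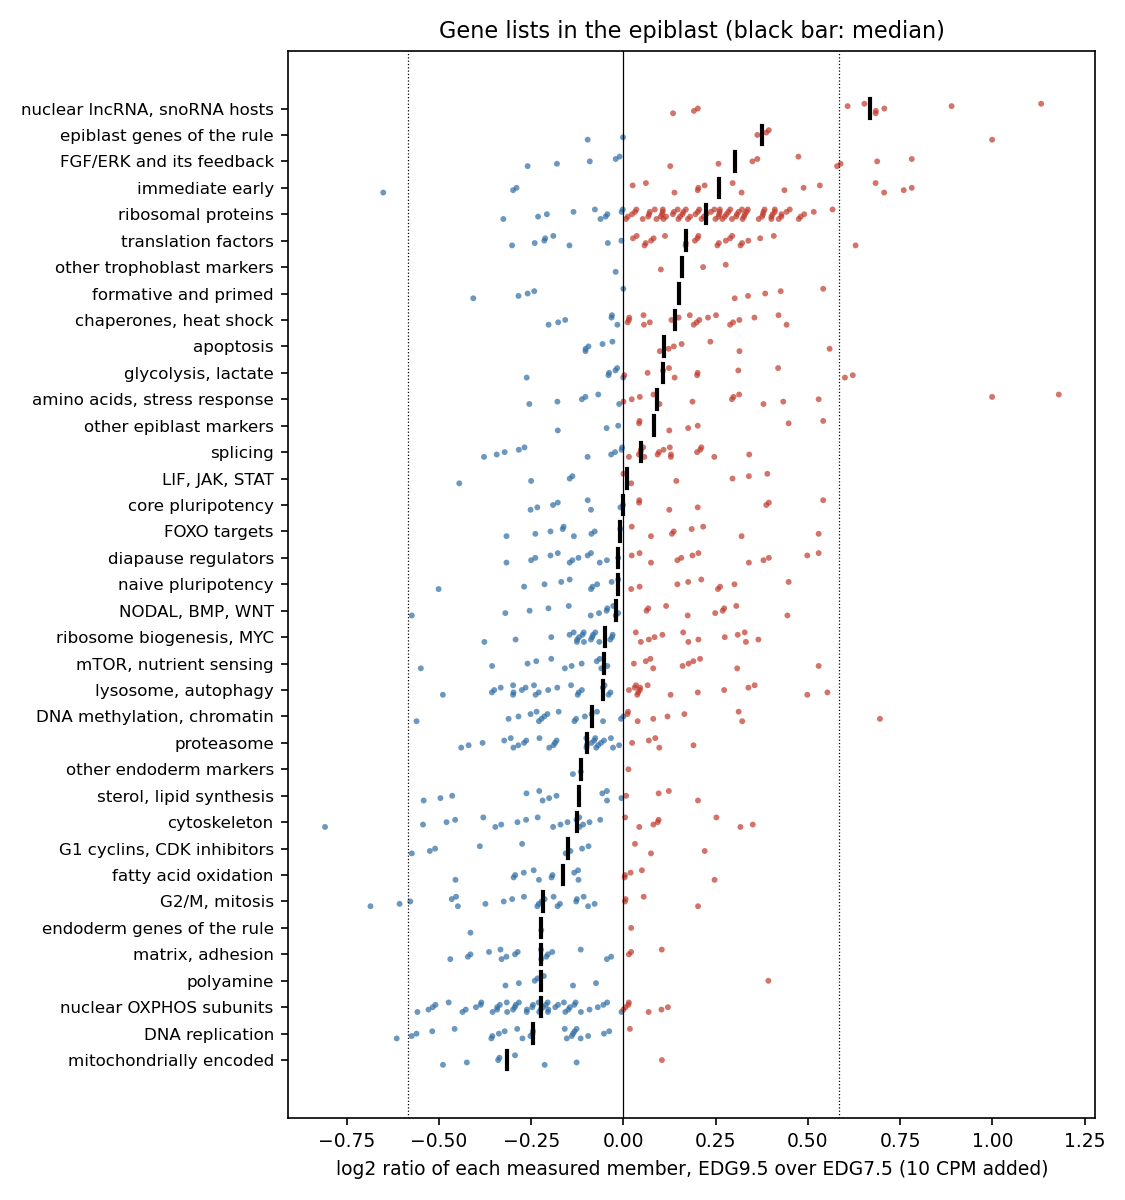
Each row is a gene list and each point 1 measured member, placed by its log2 ratio of EDG9.5 over EDG7.5 in epiblast with 10 CPM added; black bars are medians, points above 0 are red and dotted lines mark 1.5-fold. The nuclear RNAs sit at the right and DNA replication, oxidative phosphorylation and mitochondrially encoded genes at the left, with naive and core pluripotency around 0.

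Genes of the cell cycle were lower in EDG9.5 epiblast by small steps. Over all measured genes 55.9% were below 0 and 1.12% at least 1.5-fold lower. Of 25 measured DNA replication genes, 24 were below 0, with a median of -0.25. Mcm7, a subunit of the replicative helicase, was at 52.4 CPM (43.9 to 62.1) in EDG9.5 and 85.6 CPM (75.2 to 96.9) in EDG7.5. It was the only replication gene past 1.5-fold. Its log2 ratio was -0.61, but -0.19 in the cells with no UMI of the endoderm and trophoblast sets. Uhrf1, which carries DNA methylation through replication, was at 141 CPM (127 to 156) in EDG9.5 and 213 CPM (196 to 230) in EDG7.5, and Rrm2, which makes deoxynucleotides, at 72.5 CPM (62.4 to 83.8) in EDG9.5 and 108 CPM (96.5 to 121) in EDG7.5. Of 26 measured genes of G2 and mitosis, 22 were below 0, with a median of -0.22, and Birc5 and Ccnb1 were past 1.5-fold. Ccnb1, the mitotic cyclin, was at 154 CPM (139 to 170) in EDG9.5 and 239 CPM (222 to 258) in EDG7.5, while Cenpf, a kinetochore protein, was at 168 CPM in EDG9.5 and 177 CPM in EDG7.5. Of 12 G1 cyclins and inhibitors, 9 were below 0, against 55.9% of all measured genes. Ccnd1 was at 26.4 CPM (20.5 to 33.5) in EDG9.5 and 44.2 CPM (36.8 to 52.6) in EDG7.5, and the inhibitor Cdkn1b was at 225 CPM in EDG9.5 and 214 CPM in EDG7.5.

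Much of the mitotic RNA came from few cells in both libraries. After thinning, 32 of 592 epiblast cells (5.41%, 3.73 to 7.54) in EDG9.5 and 37 of 491 (7.54%, 5.36 to 10.2) in EDG7.5 held at least 10 UMIs of the G2 and mitosis list, and these intervals overlap. Such cells carried 47.6% of the list's thinned UMIs in EDG9.5 and 56.2% in EDG7.5. The other cells held a mean of 1.16 in EDG9.5 and 1.20 in EDG7.5. Replication genes did not follow those cells: their mean per 1000 UMIs was 2.87 in EDG9.5 and 3.64 in EDG7.5 among cells under that limit, and 3.03 in EDG9.5 and 3.54 in EDG7.5 among cells at or above it.

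**Figure D5:**
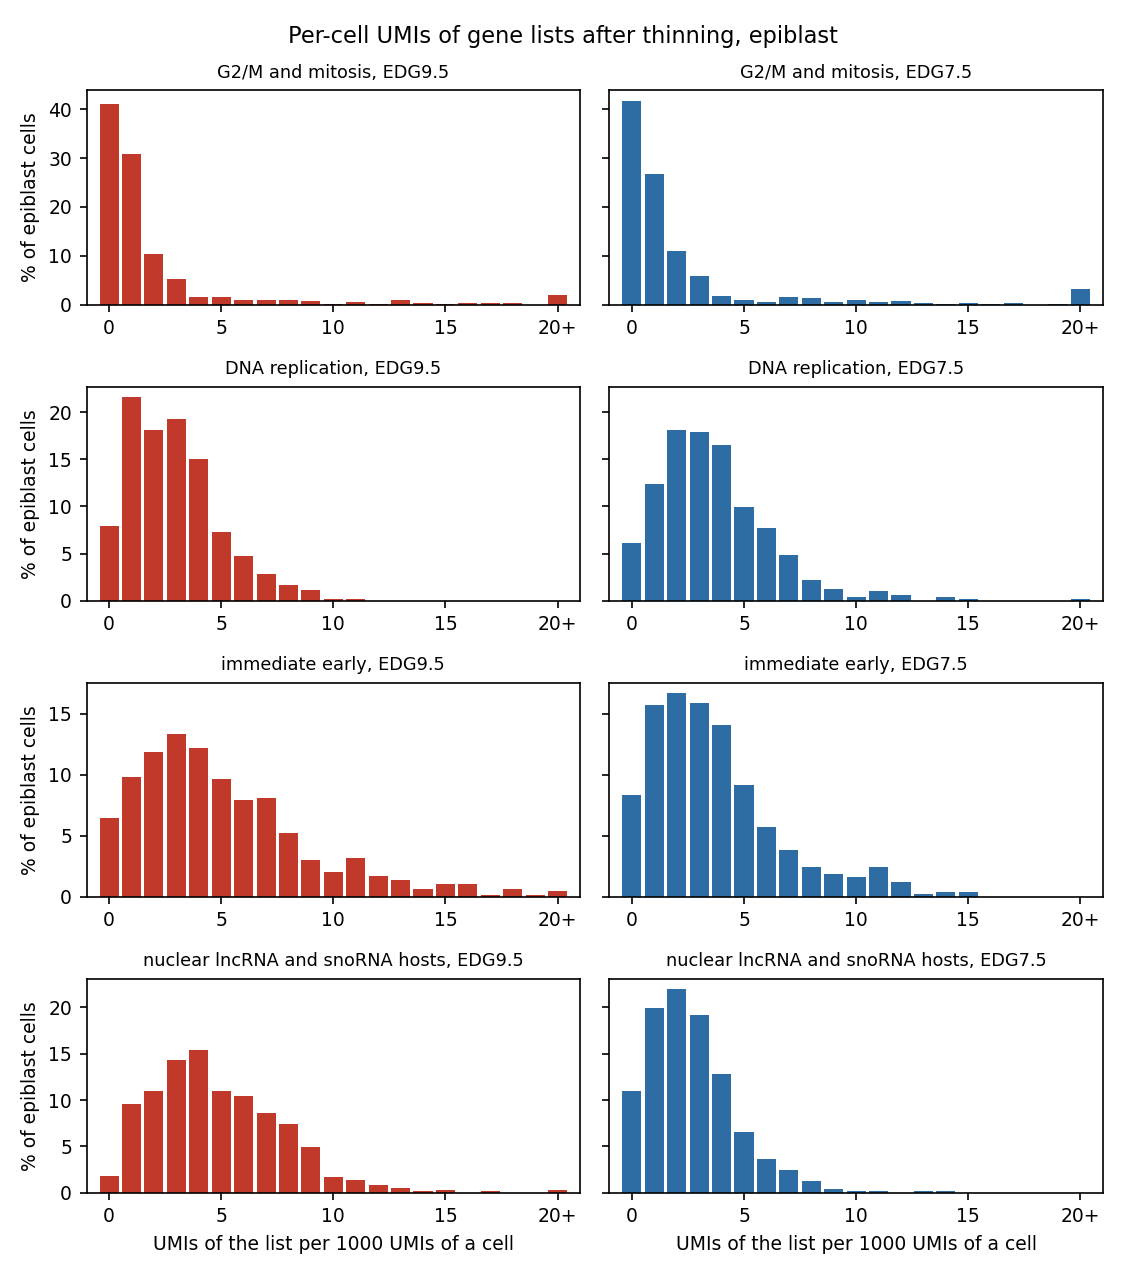
Percent of epiblast cells (vertical axis) by the number of UMIs of a list after thinning each cell to 1000 UMIs (horizontal axis, 20 and more in the last bar), EDG9.5 on the left and EDG7.5 on the right. Most cells hold 0 or 1 mitotic UMIs in both libraries, with a thin tail, whereas the nuclear RNA and immediate early lists extend further right in EDG9.5.

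In endoderm all 25 measured mitotic genes were below 0, with a median of -0.74, and in trophoblast 6 of 8 were above 0, with a median of 0.19. For DNA replication, 24 of 25 were below 0 in endoderm (median -0.20) and 12 of 21 above 0 in trophoblast (median 0.05). Replication and mitotic sums were larger outside diapause: the mitotic list summed to 2892 CPM in EDG7.5, 2329 CPM in EDG9.5, 6359 CPM in Reactivated and 5848 CPM in E5.5 epiblast.

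Energy genes were lower on the mitochondrial side. Of 53 measured nuclear genes of oxidative phosphorylation 46 were below 0, with a median of -0.22, and the list summed to 13621 CPM (13478 to 13766) in EDG9.5 and 16359 CPM (16211 to 16507) in EDG7.5. Sdhb, of succinate dehydrogenase, was at 89.9 CPM (78.6 to 102) in EDG9.5 and 137 CPM (124 to 151) in EDG7.5, and Cox6c, of cytochrome oxidase, at 812 CPM (777 to 847) in EDG9.5 and 1102 CPM (1064 to 1141) in EDG7.5. The mitochondrially encoded genes summed to 44695 CPM in EDG9.5 and 55795 CPM in EDG7.5. Of 8 measured, 7 were below 0, with a median of -0.31. That median was -0.10 in the cells with no UMI of the endoderm and trophoblast sets. The log2 ratio was -0.49 for mt-Nd4, -0.13 for mt-Co1 and 0.10 for mt-Nd3, the only one above 0. In endoderm and trophoblast the nuclear list had medians of -0.09 and -0.08 and the mitochondrially encoded genes -0.40 and -0.30. Glycolysis genes leaned the other way, 11 of 17 above 0 with a median of 0.11, against 44.1% of all measured genes above 0. That median was 0.012 when CPM were averaged over cells. In this list 2 genes were past 1.5-fold upward, against 0.92% of all measured genes. Pgk1 stood highest, with a log2 ratio of 0.62 (0.185 after thinning), and Slc16a1 lowest, with -0.26. Aldoa, of the middle of glycolysis, was at 908 CPM (872 to 946) in EDG9.5 and 677 CPM (647 to 708) in EDG7.5, the glucose transporter gene Slc2a3 at 1191 CPM (1149 to 1234) in EDG9.5 and 958 CPM (922 to 994) in EDG7.5, and Gapdh at 550 CPM in EDG9.5 and 549 CPM in EDG7.5. Of 16 fatty acid oxidation genes 11 were below 0, against 55.9% of all measured genes. Cpt1a, the entry step, was at 295 CPM in EDG9.5 and 322 CPM in EDG7.5.

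Several other groups leaned to 1 side with small ratios. Over all measured genes 44.1% were above 0 and 55.9% below. Matrix and adhesion genes were below 0 for 17 of 20 (median -0.22), with Cd9, a tetraspanin, at 598 CPM in EDG9.5 and 736 CPM in EDG7.5. Proteasome subunits were below 0 for 27 of 32 (median -0.10). Polyamine genes were below 0 for 7 of 8; Odc1, which makes polyamines, was at 164 CPM (149 to 180) in EDG9.5 and 192 CPM (176 to 209) in EDG7.5, and Sat1, which breaks them down, at 305 CPM (284 to 328) in EDG9.5 and 230 CPM (213 to 248) in EDG7.5. Chaperones were above 0 for 20 of 26 (median 0.14), with Hspa9, of mitochondria, at 547 CPM (519 to 577) in EDG9.5 and 400 CPM (377 to 424) in EDG7.5. Among 16 sterol and lipid synthesis genes 12 were below 0 (median -0.12), against all 13 in trophoblast (median -0.65). Of 27 cytoskeleton genes 19 were below 0, and Krt18, a keratin of epithelia, was past 1.5-fold at 15.8 CPM (11.3 to 21.5) in EDG9.5 and 35.1 CPM (28.6 to 42.7) in EDG7.5; its log2 ratio was -0.81, and -0.27 without the cells called doublets. Medians lay between -0.09 and 0.11 for the lists of NODAL, BMP and WNT signalling, lysosome and autophagy, chromatin, splicing and apoptosis, where H1f0 alone was past 1.5-fold.

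Regulators often named in diapause were near level. For the LIF, JAK and STAT list 6 of 10 were above 0 (median 0.01), for FOXO targets 8 of 17 (median -0.01), and for mTOR and nutrient sensing 10 of 22 (median -0.05), none of them past 1.5-fold. The LIF receptor gene Lifr was at 116 CPM (103 to 130) in EDG9.5 and 140 CPM (127 to 155) in EDG7.5, and Stat3 at 359 CPM in EDG9.5 and 398 CPM in EDG7.5, while Socs3, the feedback inhibitor that STAT3 induces, was at 327 CPM (305 to 350) in EDG9.5 and 256 CPM (238 to 276) in EDG7.5. Foxo3 was at 112 CPM (98.9 to 125) in EDG9.5 and 129 CPM (117 to 143) in EDG7.5. Mtor was at 69.8 CPM (59.9 to 80.8) in EDG9.5 and 73.4 CPM (63.8 to 84.0) in EDG7.5, Myc at 55.6 CPM in EDG9.5 and 47.0 CPM in EDG7.5, and Mycn at 324 CPM in EDG9.5 and 345 CPM in EDG7.5.

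Within each library the epiblast cells differed most in a few genes. Over 3572 genes detected often enough, the variance of thinned counts over their mean had a median of 1.03 in both libraries, close to that of counting alone. The metallothionein genes Mt2 and Mt1, which bind metal ions, reached 4.46 and 2.80 in EDG9.5 and 4.92 and 2.89 in EDG7.5. Gpnmb, a membrane glycoprotein, reached 3.15 in EDG9.5 and 2.37 in EDG7.5; 39.4% of thinned epiblast cells in EDG9.5 and 37.5% in EDG7.5 held a UMI of it. The share was 21.6% in EDG9.5 and 16.1% in EDG7.5 for trophoblast cells, and 0% in EDG9.5 and 0.17% in EDG7.5 for endoderm cells. Malat1 reached 3.12 in EDG9.5 and 1.97 in EDG7.5, and the mitotic genes Cenpf, Mki67 and Ccnb1 and the immediate early genes Egr1 and Fos also ranked among the 15 most uneven.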

How the data were processed

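The deposited files hold counts: for every gene and barcode the authors give 1 whole number, taken here as UMIs. UMI-tools 1.0.1, STAR 2.7.1a, featureCounts 1.6.4 of Subread and the mm10 build are named, per the submitters' processing notes. Which annotation and strand setting were used, and how barcodes were selected, is not given in the sources used here; antisense or overlapping genes and near-identical copies may therefore share reads. The files name 25437 genes. The members and gene lists were chosen with earlier results of these data known. UMIs were summed over epiblast cells of each library and given as CPM with exact Poisson intervals, and ratios with exact conditional binomial intervals; 10 CPM were added before log2. A gene was measured at a mean of 20 CPM. Named genes are the 12 highest and 12 lowest log2 ratios among genes with at least 50 UMIs, at least 100 CPM in 1 library and no cell above 10% of their UMIs, leaving out ribosomal protein, mitochondrial, predicted, haemoglobin and rule genes; in each list the 3 members of highest mean CPM and both extremes; the rule genes; and a list of diapause regulators. Other genes were named after their values were seen. Cells were thinned to 1000 UMIs with a fixed seed where cells are compared. Doublets were kept; Scrublet (scanpy 1.11.5) called 8 of 2522 cells in EDG9.5 and 14 of 1723 in EDG7.5, too few in EDG9.5 to count as a working call. The steps were tested on simulated data. Alternatives covered cell filters, marker lists, scaling (with edgeR TMM factors), added CPM and level minimums. Gene positions are from GENCODE vM21. Python 3.11.15, numpy 2.4.6, scipy 1.17.1, pandas 2.3.3, R 4.3.3 and edgeR 4.0.16 were used.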

Additional observations from a re-analysis of the deposited data

Results flagged for a closer look

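Birc5, a mitotic gene, had log2 ratios of EDG9.5 over EDG7.5 with opposite signs in 2 lineages: -0.69 in epiblast cells and 0.96 in trophoblast cells. In the epiblast it was at 108 CPM in EDG9.5 and 179 CPM in EDG7.5, and in the trophoblast at 34.3 CPM in EDG9.5 and 12.8 CPM in EDG7.5. After thinning, only 1.44% of trophoblast cells in EDG9.5 and 0.98% in EDG7.5 held a UMI of Birc5. Whether single cells carried much of it in trophoblast was not checked. The difference between the lineages was not tested, since each stage had 1 library.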

How the results depend on the processing

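With 1 library per stage no replicate could be left out. No paired analysis was possible because each stage has 1 library and no numbered replicates. Other marker lists called 324 epiblast cells (15.6% of cells with a lineage) in EDG9.5 and 258 (17.9%) in EDG7.5. Keeping only cells without a UMI of the endoderm and trophoblast sets, an alternative chosen after seeing the data, left 135 in EDG9.5 and 66 in EDG7.5, and cells under 10% mitochondrial UMIs gave shares of 30.6% and 42.1%. The count of genes at least 2-fold higher in EDG9.5 epiblast and of genes at least 2-fold lower in EDG9.5 epiblast, 3 each in the report, was 7 and 7 with other marker lists, 95 and 134 without endoderm and trophoblast UMIs, 34 and 38 after thinning, and 9 and 9 with 1 CPM added; it was 5 higher at 5 UMIs and 80% of the marker sets, 5 lower with no level minimum and 1 lower with 50 CPM added. For genes at least 1.5-fold higher in EDG9.5 epiblast and genes at least 1.5-fold lower in EDG9.5 epiblast, 65 and 79 in the report, the same settings gave 106 and 155, 521 and 788, 359 and 409, and 127 and 192, while 50 CPM added gave 20 and 6, a minimum of 50 CPM 40 and 36, and no minimum 111 and 130. The first 3 of these settings leave fewer cells or fewer UMIs per gene. Other marker lists and the limit on endoderm and trophoblast UMIs also change which cells are taken. The part of each in the higher counts was not tested. Of 665 list medians under alternatives, 42 had the opposite sign, in 11 of 37 lists, most of them lists near 0. Among lists at least 0.15 from the median of all genes, the formative and primed list turned to -0.18 without endoderm and trophoblast UMIs and the endoderm genes of the rule to 0.021 at a minimum of 50 CPM. Of 2827 values of named genes, 86 had the opposite sign, in 49 of 189 genes. Among genes past 1.5-fold these were Atf3 (0.87) and Lsm4 (0.044) without endoderm and trophoblast UMIs and Krt18 (0.12) with other marker lists; the cause was not tested. The median of the DNA replication list ranged from -0.34 to -0.16 and that of the nuclear RNA list from 0.36 to 0.81. Genes near the minimum of 20 CPM rest on few UMIs, and small differences there were not detectable at this depth.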
